A study of Mus musculus with 10 samples.

Results

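The stress effector Atf4 with 4 genes of its response, and 5 enzymes that make asparagine, serine and glycine, were followed in ribosome footprints of the developing mouse neocortex. The 10 genes were Atf4, Ddit3, Ddit4, Trib3, Sesn2, Asns, Phgdh, Psat1, Psph and Shmt2, taken by symbol out of 22373 genes in the deposited count table. Ribo-seq sequenced the mRNA fragments that ribosomes shielded from RNase T1 and RNase A, so a footprint count reflects at once how much of an mRNA there was and how densely ribosomes covered it. The neocortex was dissected from wild-type CD-1 mice at E12.5, E14, E15.5 and E17, embryonic days counted from timed mating, and at P0, the day of birth. Each of the 5 stages had 2 libraries, pooled brains of both sexes made up each library, the labels name no treatment of the animals, and no stage served as a control. The footprints came from whole tissue, in which fewer cells of a type and less RNA per cell cannot be told apart.

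Atf4 is the transcription factor of the integrated stress response. Kinases that sense unfolded protein, viral RNA, missing amino acids or missing haem phosphorylate the alpha subunit of the initiation factor eIF2, which lowers bulk translation while upstream open reading frames let more ribosomes reach the Atf4 coding sequence. The Atf4 protein then switches on genes of amino acid uptake and synthesis, among them the serine pathway, in which Phgdh oxidises the glycolytic intermediate 3-phosphoglycerate, Psat1 transfers an amino group and Psph removes the phosphate. Shmt2 converts serine to glycine in mitochondria and so feeds the folate cycle, which dividing progenitors of the cortex use to make nucleotides.

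Atf4 binds as a dimer with C/EBP factors to the C/EBP-ATF response element, whose core was searched as TGATGNAA on both strands. RefSeq promoter windows of GRCm38.p6, from 250 bases before to 50 bases after a transcript's start, were given for all 10 genes, as 11 windows. The core was found in 2 of these windows, that of Asns and that of Trib3, and in 3.97% of all 32851 windows. The E-box CACGTG was in 0 of the 11 and in 7.15% of all windows. The stretches with a match are shown because they are the only ones in these windows, with the matching letters in capitals. In Asns the match lay 23 to 16 bases before the start, and the sequence covers chr6:7693210-7693459 on the minus strand, the 250 bases before the start. In Trib3 the core was on the other strand, so that the printed strand reads its reverse complement. The match lay 15 to 22 bases after the start, within chr2:152344028-152344057 on the minus strand.
Asns: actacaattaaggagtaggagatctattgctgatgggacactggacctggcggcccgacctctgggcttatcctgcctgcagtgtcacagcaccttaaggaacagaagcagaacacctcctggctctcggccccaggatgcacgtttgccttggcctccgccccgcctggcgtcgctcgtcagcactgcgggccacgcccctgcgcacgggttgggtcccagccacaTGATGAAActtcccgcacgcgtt
Trib3: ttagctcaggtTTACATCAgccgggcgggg
A match of 8 letters is a description of the sequence and not a measured binding site.

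P0 replicate 1 held 7544404 counts, and the other libraries held 21378041 to 36129988. Across genes averaging 500 counts or more, log2 ratios of replicate 1 to replicate 2 had an SD of 0.125 to 0.216 in the embryonic stages and of 0.532 at P0. Genes with a Hist symbol, the histone clusters, took 34% to 38.5% of the counts at E12.5 and 6.32% to 9.83% at P0, and levels are therefore given as CPM, counts relative to a library size that TMM (trimmed mean of M values) scales without the genes of extreme ratio. All 6 neocortex markers were present, summing to 563 to 601 CPM at E12.5 and 472 to 473 CPM at P0. Calls required an adjusted p under 0.05 in limma-voom and a log2 difference of at least 0.32 in size. By these calls 3 of the 6 neocortex markers were lower and 1 higher from E12.5 to P0, so their sum does not describe each marker. Of all genes, 62.1% were called over this span and 32% were called lower. Of the 10 genes 9 had the minimum of 32 footprints in a stage and were tested among 13484 genes, and Trib3 was not.

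Over the whole span the enzymes diverged from one another while Atf4 and the tested stress genes had no called change. From E12.5 to P0, Asns rose and Phgdh, Psat1, Psph and Shmt2 fell, so that 5 of the 9 tested genes (55.6%) were called, beside 62.1% of all genes. The 4 that fell made up 44.4% of those tested, beside 32% of all genes. The share called thus lay near that of the table. Across the 5 stages, 6 of the 9 (66.7%) changed by the moderated F test of limma-voom, beside 63.8% of all genes. Between E14 and E15.5, 6 of the 9 (66.7%) were called beside 36.1% of all genes, and the 5 that were lower made up 55.6% beside 19.6%. From E12.5 to E14, 0 of the 9 were called by limma-voom, edgeR or DESeq2, 2 had an unadjusted p under 0.05 in each of these tools, and 0.638% of all genes were called.

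**Figure D1:**
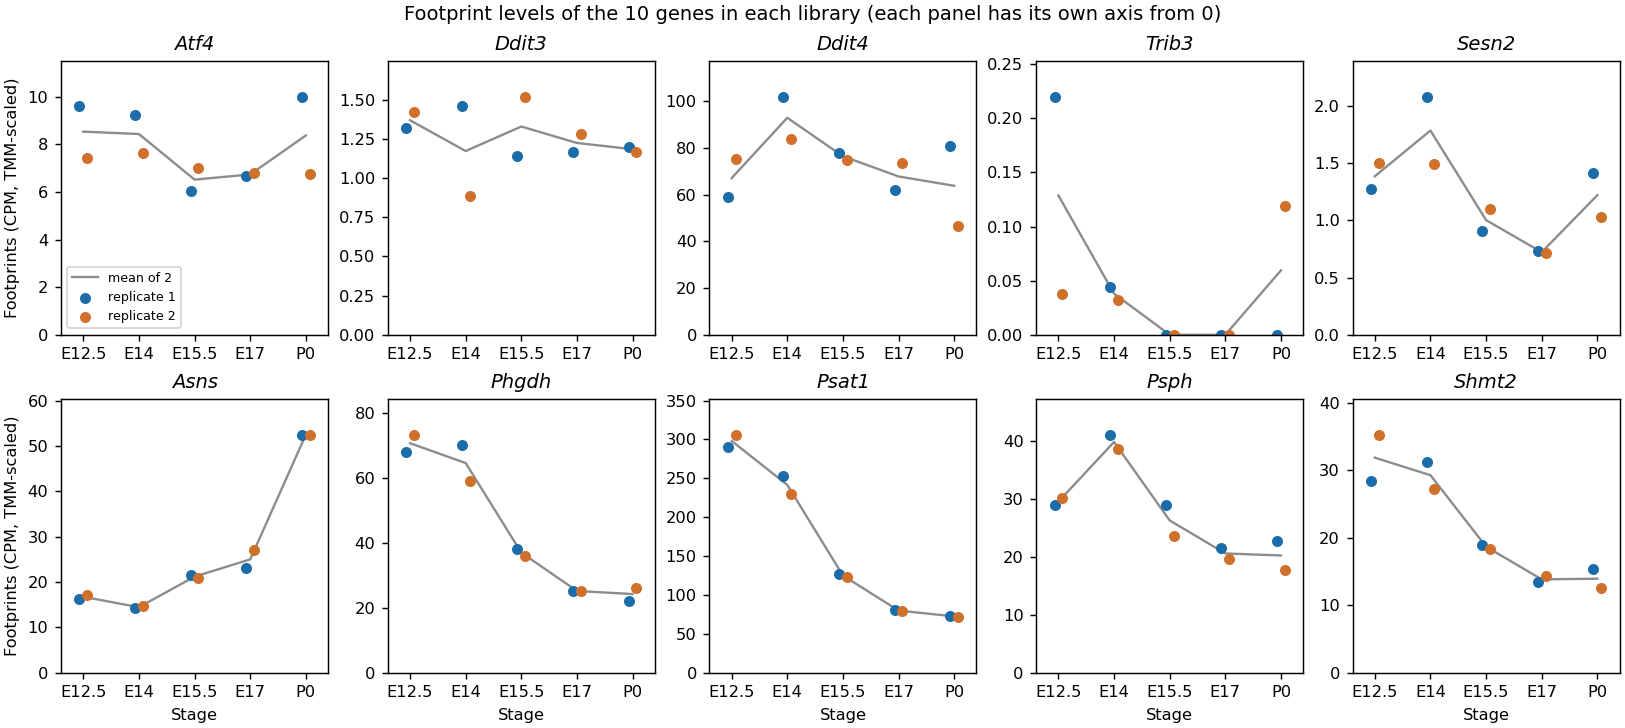
Footprint level of each gene in each library, in TMM-scaled CPM on axes of their own, against stage. Points are the 2 libraries of a stage and lines join the stage means. Asns lies highest at P0, with both libraries at 52.5 CPM, while Psat1, Phgdh and Shmt2 lie highest in E12.5 and E14 libraries, and Atf4, Ddit3 and Ddit4 have stages that overlap.

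Atf4 (ENSMUSG00000042406) itself had no called change in any of the 5 comparisons. In CPM, the 2 libraries of E12.5 had 9.63 and 7.44, the E14 libraries 9.23 and 7.64, the E15.5 libraries 6.03 and 7.01, the E17 libraries 6.67 and 6.8 and the P0 libraries 10 and 6.75. The highest and the third lowest value were thus the 2 libraries of P0, and the E12.5 and P0 ranges overlapped. The log2 fold change from E12.5 to P0 was −0.12 with an SE of 0.21 (limma-voom, adjusted p = 0.653, 95% interval −0.60 to 0.37). The step with the largest difference was E14 to E15.5, at −0.37 ± 0.20 (SE, adjusted p = 0.199). Both E15.5 libraries lay below both E14 libraries there, beside 76.9% of all genes whose libraries of these 2 stages did not overlap. With sample quality weights this step was called, at −0.38 and an adjusted p of 0.0489. The table gives 1 count per gene, so footprints of the upstream reading frames could not be set apart from those of the coding sequence.

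Ddit4 (ENSMUSG00000020108), which restrains mTORC1 under stress and low oxygen, gave 82.6% to 90.6% of the footprints of the 5 stress genes Atf4, Ddit3, Ddit4, Trib3 and Sesn2. The E12.5 libraries had 58.9 and 75.4 CPM, the E14 libraries 102 and 84, the E15.5 libraries 77.9 and 75.1, the E17 libraries 62 and 73.7 and the P0 libraries 80.9 and 46.8. Both E14 libraries were above all the others, and the P0 libraries lay on opposite sides of both E17 libraries. The change from E12.5 to P0 was −0.16 on the log2 scale (95% interval −0.72 to 0.41, limma-voom, adjusted p = 0.601). This value hung on which P0 library was kept. Without P0 replicate 1 Ddit4 was called lower, by −0.51 (adjusted p = 0.0291) against E12.5 and by −0.53 (adjusted p = 0.0489) against E17, and without P0 replicate 2 it was 0.31 and 0.29 (adjusted p = 0.184 and 0.26).

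Like Sesn2, Ddit3 (ENSMUSG00000025408), also known as CHOP, a pro-apoptotic partner of C/EBP proteins, had few counts. It had 11 to 49 counts per library, or 0.887 to 1.52 CPM, with both extremes at E14 and E15.5. Its change from E12.5 to P0 was −0.23 (95% interval −0.87 to 0.41, limma-voom, adjusted p = 0.49). Trib3 (ENSMUSG00000032715), a pseudokinase that Atf4 and Ddit3 induce and that holds both back, had 12 counts in all 10 libraries together. These were 4 and 1 at E12.5, 1 and 1 at E14, 0 in the 4 libraries of E15.5 and E17, and 0 and 5 at P0. A count of 0 allows up to 3 counts, or 0.0904 to 0.326 CPM in the libraries concerned, so no stage could be ranked above another at this depth. This floor, like the interval of a count, covers counting error only.

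Sesn2 (ENSMUSG00000028893), a sestrin that senses leucine and restrains mTORC1, was the 1 stress gene with a called step. It had 13 to 47 counts per library, and in CPM the 2 libraries of E12.5 had 1.27 and 1.5, the E14 libraries 2.08 and 1.49, the E15.5 libraries 0.904 and 1.1, the E17 libraries 0.73 and 0.713 and the P0 libraries 1.41 and 1.03. Both E14 libraries lay above both E15.5 libraries, and both of those above both E17 libraries. Libraries did not overlap in 76.9% and 67.8% of all genes at these steps. Sesn2 fell by 0.80 ± 0.24 (log2, SE) from E14 to E15.5 (limma-voom, adjusted p = 0.0328), and across all stages the F test gave an adjusted p of 0.0252. The call of the step was lost on leaving out E14 replicate 1 (−0.60, adjusted p = 0.139), E15.5 replicate 1 (−0.64, 0.22), E15.5 replicate 2 (−0.92, 0.0852), E17 replicate 1 (−0.80, 0.0557) or E17 replicate 2 (−0.80, 0.0561). It was also lost with DESeq2 (−0.85, adjusted p = 0.198), with total counts (−0.51, 0.114) and without a filter (−0.79, 0.053). From E12.5 to P0 the difference was −0.36 (95% interval −0.96 to 0.24, adjusted p = 0.257). Summed over the 5 stress genes, the level went from 78.6 ± 10.2 CPM (SD, n = 2) at E12.5 through 104 ± 14.8, 85.4 ± 0.904 and 76.5 ± 8.41 to 74.7 ± 26.7 at P0.

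Asns (ENSMUSG00000029752), asparagine synthetase, which builds asparagine from aspartate and glutamine, was the 1 gene of the 9 tested that rose. In CPM, the 2 libraries of E12.5 had 16.3 and 17.2, the E14 libraries 14.2 and 14.7, the E15.5 libraries 21.5 and 20.9, the E17 libraries 23 and 27 and the P0 libraries 52.5 and 52.5. From E15.5 on, both libraries of each stage lay above both of the stage before. At these steps in turn, libraries did not overlap in 76.9%, 67.8% and 55.8% of all genes. Asns rose 3.13-fold from E12.5 to P0, by 1.65 ± 0.11 on the log2 scale (SE, limma-voom, adjusted p = 4.93e-06). The rise came in steps of 0.55 ± 0.11 from E14 to E15.5 (adjusted p = 0.0053), 0.23 from E15.5 to E17 (adjusted p = 0.218, not called) and 1.08 ± 0.10 from E17 to P0 (adjusted p = 0.00106). At this last step Asns was the only gene of the 9 called (11.1%), beside 20.5% of all genes called and 9.46% called higher. The call of the last step held on leaving out either P0 library, although the replicates of that stage differed more than those of any other, and it lost its call where E17 and P0 were fitted alone (adjusted p = 0.0938), a fit in which 0 of all genes were called.

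The serine enzymes fell from E14 to E15.5, where Asns rose, but had no called change from E17 to P0, where Asns rose most. Phgdh (ENSMUSG00000053398) commits carbon from glycolysis to serine. In CPM, the 2 libraries of E12.5 had 68 and 73.2, the E14 libraries 69.9 and 59.1, the E15.5 libraries 38.1 and 35.8, the E17 libraries 25.1 and 25.2 and the P0 libraries 22.2 and 26.2. Every library of E12.5 and E14 lay above every later one, and E17 lay inside the range of P0. Phgdh fell by 0.80 ± 0.12 from E14 to E15.5 (log2, SE, limma-voom, adjusted p = 0.00141) and by 1.53 ± 0.13 from E12.5 to P0 (adjusted p = 1.68e-05), when it was 2.89-fold lower. It fell by 0.55 ± 0.12 from E15.5 to E17 (adjusted p = 0.0315), but this call was lost without a filter and with the replicate block (0.055). The call was also lost on leaving out replicate 1 or 2 of E12.5, E15.5 or E17. With a library left out the log2 fold change of this step was −0.603 to −0.507. The reference names a pseudogene, Phgdh-ps1, that was not analysed here, and since reads with several matches were kept, footprints shared with it are uncertain.

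Psat1 (ENSMUSG00000024640), the aminotransferase of the second step, carried 62% to 74.9% of the footprints of the 3 enzymes and showed the largest fall of the 9 genes tested. The E12.5 libraries had 290 and 306 CPM, the E14 libraries 253 and 230, the E15.5 libraries 127 and 123, the E17 libraries 80.2 and 79.6 and the P0 libraries 73.4 and 71.6. Both libraries of each stage lay below both of the stage before, at all 4 steps. At these steps in turn, libraries did not overlap in 53.2%, 76.9%, 67.8% and 55.8% of all genes. Psat1 fell by 0.95 ± 0.09 from E14 to E15.5 (log2, SE, limma-voom, adjusted p = 0.000182), and between E12.5 and P0 it fell by 2.04 ± 0.09 (adjusted p = 9.11e-07), when it was 4.11-fold lower. It also fell by 0.65 ± 0.09 from E15.5 to E17 (adjusted p = 0.00886), where Phgdh and Psat1 were the 2 of 9 called (22.2%), beside 9.04% of all genes called and 3.43% called lower. Without E15.5 replicate 1 or 2 the adjusted p of this step for Psat1 was 0.128 and 0.0853, and without E17 replicate 1 or 2 it was 0.0747 and 0.0876, with log2 fold changes of −0.673 to −0.625. Of all genes, 18 were called without E17 replicate 1 and 0 in each of the other three fits. From E17 to P0 the difference was −0.14 (adjusted p = 0.296), and from E12.5 to E14 it was −0.31 (adjusted p = 0.141).

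**Figure D2:**
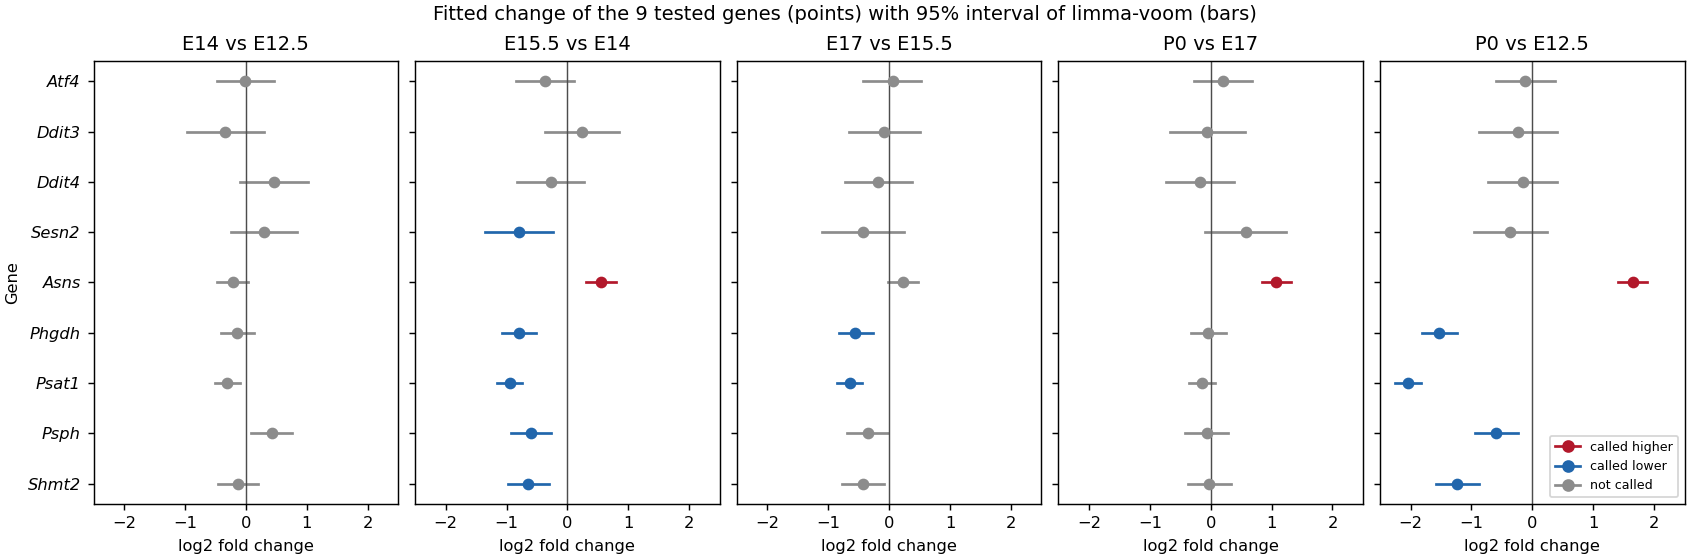
Fitted log2 fold change of each tested gene in the 5 comparisons, 1 panel per comparison, with bars for the 95% interval. Colour gives the limma-voom call, red for higher, blue for lower and grey for not called. Between E14 and E15.5 Asns lies to the right of 0 at 0.55 and Psat1 farthest to the left at −0.95, and at P0 against E12.5 they lie at 1.65 and −2.04.

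Psph (ENSMUSG00000029446), the phosphatase that completes serine synthesis, was highest at E14. In CPM, the 2 libraries of E12.5 had 29 and 30.1, the E14 libraries 41.1 and 38.6, the E15.5 libraries 29 and 23.6, the E17 libraries 21.6 and 19.6 and the P0 libraries 22.8 and 17.7. Both E14 libraries were the highest of the 10, and the E17 libraries lay inside the range of P0. The difference from E12.5 to E14 was 0.43 (limma-voom, adjusted p = 0.199), and it was called only without P0 replicate 1 (adjusted p = 0.0498), a library of neither stage. Psph fell by 0.60 ± 0.14 from E14 to E15.5 (log2, SE, adjusted p = 0.0127) and by 0.59 ± 0.15 from E12.5 to P0 (adjusted p = 0.00913), when it was 1.51-fold lower. The first call was lost with total counts (−0.306) and without E14 replicate 1 or E15.5 replicate 2, and the other without P0 replicate 2 (−0.34). With total counts in place of TMM the change from E12.5 to P0 was −0.07 (adjusted p = 0.715). Its call was also lost with sample quality weights (−0.53, 0.111) and with those stages fitted alone (−0.56, 0.0754). Summed over Phgdh, Psat1 and Psph, the level went from 398 ± 16 CPM (SD, n = 2) at E12.5 through 346 ± 25.7, 188 ± 8 and 126 ± 1.87 to 117 ± 2.12 at P0.

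Shmt2 (ENSMUSG00000025403), mitochondrial serine hydroxymethyltransferase, had a profile near that of Phgdh. Its E12.5 libraries had 28.5 and 35.3 CPM, the E14 libraries 31.3 and 27.3, the E15.5 libraries 19 and 18.4, the E17 libraries 13.4 and 14.3 and the P0 libraries 15.4 and 12.53. All 4 libraries of E12.5 and E14 lay above the E15.5 libraries, and these lay above all 4 later ones. Shmt2 fell by 0.64 ± 0.14 from E14 to E15.5 (log2, SE, limma-voom, adjusted p = 0.00931) and by 1.23 ± 0.15 from E12.5 to P0 (adjusted p = 0.000173), when it was 2.34-fold lower. The first of these calls was lost with total counts (−0.347) and without E14 replicate 1, E15.5 replicate 1 or E15.5 replicate 2. With a library left out this step was at −0.748 to −0.548. The step from E15.5 to E17, −0.43 (adjusted p = 0.11), was called without P0 replicate 1 or P0 replicate 2. It was also called with sample quality weights and with those stages fitted alone. Of the 36 pairs among the 9 genes, the profiles of Phgdh and Psat1 (root mean square difference of centred log2 CPM 0.191 over the 10 libraries) and of Phgdh and Shmt2 (0.195) were closest, and those of Asns and Psat1 were farthest apart (1.40).

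Ratios of counts within a library do not depend on how libraries are scaled, and they separate Asns from the serine enzymes most plainly. In footprints of Asns per Psat1 footprint, the 2 libraries of E12.5 had 0.0564 and 0.0561, the E14 libraries 0.0563 and 0.064, the E15.5 libraries 0.17 and 0.169, the E17 libraries 0.286 and 0.339 and the P0 libraries 0.716 and 0.734. E12.5 and E14 libraries overlapped, and from there on every library of a stage lay above every library of the stage before. Against Phgdh, Asns went from 0.24 and 0.234 at E12.5 to 2.37 and 2.01 at P0. Psat1 against Phgdh moved far less, from 4.26 and 4.18 at E12.5 to 3.31 and 2.73 at P0. The ratios describe change over stages, since without coding lengths they do not compare the levels of different genes.

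**Figure D3:**
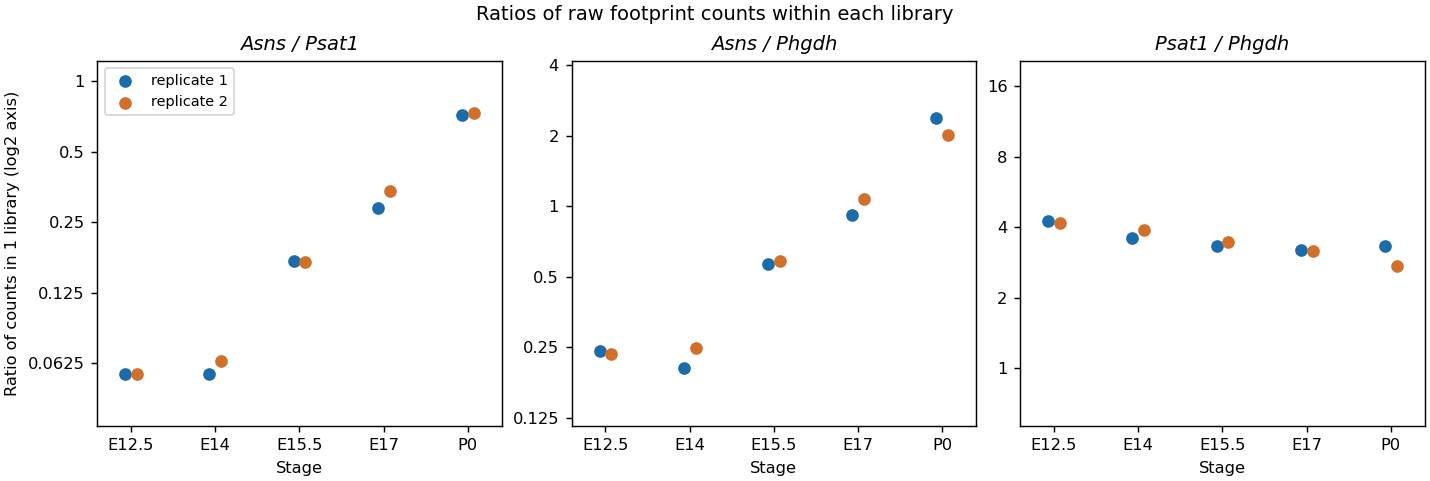
Ratio of raw footprint counts within each library, on a log axis, against stage, for Asns over Psat1, Asns over Phgdh and Psat1 over Phgdh. Asns over Psat1 climbs from 0.0561 to 0.0564 at E12.5 to 0.716 to 0.734 at P0, and Psat1 over Phgdh stays between 2.73 and 4.26.

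The step from E14 to E15.5, which held most of the called falls, was also where markers of other tissues dropped. Of all genes, 36.1% were called at this step and 19.6% were called lower. The 6 fibroblast markers of the meninges summed to 61.1 to 71 CPM at E14 and 2.38 to 2.41 at E15.5, with all 6 called lower. The 5 choroid plexus markers went from 1110 to 1120 CPM at E14 down to 10.8 to 13.7, and the 5 endothelial markers from 21.4 to 28.7 down to 7.01 to 8.23, with all 5 of each called lower. Of the 7 red cell markers 5 were lower, with sums of 9990 to 11000 and 6900 to 7420 CPM. Radial glia markers were lower in 5 of 7 and higher in 1, although their sum was 1950 to 2010 CPM at E14 and 2020 to 2190 at E15.5, and all 8 neuronal markers were higher, with sums of 2980 to 3040 and 6360 to 6610 CPM. No marker of these lists was at 0 in all libraries, and their part in the falls of Phgdh, Psat1, Psph, Shmt2 and Sesn2 and in the rise of Asns was not tested. At P0, where Asns was highest, the 7 astrocyte markers summed to 186 to 198 CPM, against 141 to 153 at E17 and 269 to 282 at E12.5. From E12.5 to P0, 4 of them were called higher, among them Gfap from 0.13 to 11.4 CPM and Aldh1l1 from 0.839 to 30.5, and 3 lower, among them Sox9 from 47.3 to 11.5 and Aldoc from 213 to 112. Of all genes, 62.1% were called over this span and 32% were called lower. The part of the astrocyte markers in the rise of Asns was not tested either.

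Scaling libraries by total counts moved the median of all genes by 0.294 (log2) from E14 to E15.5, by 0.108 from E17 to P0 and by 0.527 from E12.5 to P0. Relative to the median, Psat1 was at −2.03, Phgdh at −1.52, Shmt2 at −1.22, Psph at −0.58 and Asns at 1.66 from E12.5 to P0 under either scaling. Going from 1 scaling to the other moves the log2 fold changes of all genes in a comparison by about the same amount. Values relative to the median thus had to agree, and they do not test the scaling. With total counts the split from E14 to E15.5 was 1 higher and 2 lower, in place of 1 and 5.

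Upstream of Atf4, the 4 eIF2 kinases, the alpha subunit and both phosphatase subunits were measured. From E12.5 to P0, 2 of the 7 were higher and 4 lower, with a median of −0.45 beside −0.013 for all genes. That is 85.7% called, beside 62.1% of all genes, and 57.1% called lower beside 32%. The median was −0.184 without P0 replicate 2, beside −0.074 for all genes in that fit. With total counts it was 0.067, beside 0.514 for all genes. Eif2ak4, the kinase that senses uncharged tRNA, fell by 1.22 ± 0.16 (log2, SE, limma-voom, adjusted p = 0.000249), from 13.7 to 6.02 CPM. Eif2s1, the alpha subunit itself, fell by 0.90 ± 0.21 (adjusted p = 0.00545), and Eif2ak1, the haem-sensing kinase, rose by 0.34 ± 0.11 (adjusted p = 0.0249). The list had 0 called from E12.5 to E14, 1 lower to E15.5, 0 to E17, and 1 higher and 1 lower to P0. Of all genes, 0.638%, 36.1%, 9.04% and 20.5% were called at these 4 steps. The calls of this list were not firm, with 0 higher and 3 lower without E12.5 replicate 1, 1 higher and 3 lower without E12.5 replicate 2 or without P0 replicate 2, and 2 higher and 2 lower with total counts. With total counts it also had 1 higher and 1 lower from E14 to E15.5 and 1 higher and 0 lower from E17 to P0.

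Other genes that Atf4 is known to switch on moved in both directions. Of 22 genes on the list 20 were tested, and from E12.5 to P0, 3 were higher and 10 lower, with a median of −0.70. The 65% called lay near the 62.1% of all genes, and 50% were called lower beside 32%. Without P0 replicate 2 the median of the list was −0.071, beside −0.074 for all genes in that fit. Aldh1l2, which oxidises folate-bound carbon in mitochondria, rose 5.09-fold (log2 2.35 ± 0.14, SE, limma-voom, adjusted p = 3.01e-06), from 2.28 to 11.7 CPM. Vldlr, a receptor that also takes up the reelin signal of migrating neurons, rose by 1.17 ± 0.13 (adjusted p = 0.000113). Cebpg, a C/EBP partner of Atf4, fell by 1.71 ± 0.23 (adjusted p = 0.000281), from 69.1 to 20.8 CPM, and Eif4ebp1, which blocks cap-dependent initiation, by 1.44 ± 0.18 (adjusted p = 0.000176). From E14 to E15.5 the list had 3 higher and 10 lower, or 1 and 5 without E15.5 replicate 1 and 1 and 6 without E15.5 replicate 2, from E15.5 to E17 3 higher and 0 lower, and from E17 to P0 1 higher and 2 lower. Of all genes, 36.1%, 9.04% and 20.5% were called at these 3 steps. With total counts the split of the list from E12.5 to P0 was 5 higher and 7 lower.

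Around Shmt2, the genes of the folate cycle and of glycine use were mostly lower at P0. Of 17 tested, 2 were higher and 13 lower from E12.5 to P0, with a median of −1.0. That is 88.2% called, beside 62.1% of all genes, and 76.5% called lower beside 32%. Tyms, which makes thymidylate, fell by 3.37 ± 0.10 (log2, SE, limma-voom, adjusted p = 4.42e-07), from 176 to 17.2 CPM. Srr, the racemase that turns serine into the NMDA receptor ligand D-serine, rose 8.02-fold (limma-voom, adjusted p = 1.62e-06), from 8.43 to 66.2 CPM. Cbs, which joins serine to homocysteine, rose by 2.01 ± 0.21 (adjusted p = 6.46e-05), from 4.44 to 17.7 CPM. Of all genes, 36.1% were called from E14 to E15.5, 9.04% from E15.5 to E17 and 20.5% from E17 to P0. In this list the step from E14 to E15.5 had 1 higher and 12 lower. That from E15.5 to E17 had 0 and 6, and that from E17 to P0 5 and 2. With total counts the split from E14 to E15.5 was 2 higher and 5 lower, without E15.5 replicate 1 it had 7 lower, and without E15.5 replicate 2 it had 5 lower. Of 5 serine transporters 0 were higher and 2 lower (40%) from E12.5 to P0, beside 62.1% of all genes called and 32% called lower. The median of the 5 was 0.02. With total counts 2 were higher and 2 lower, and from E14 to E15.5 1 higher and 2 lower in place of 0 and 2.

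Genes of the other arms of the unfolded protein response, which share the upstream signal in the endoplasmic reticulum, were called lower at P0 in most cases. The list holds chaperones and Pdia4, and also Xbp1, Ern1 and Atf6, which regulate this response. Of 15 tested, 0 were higher and 11 lower from E12.5 to P0, with a median of −1.53, and with total counts 2 were higher and 9 lower. The 73.3% called lower stand beside 32% of all genes. Pdia4, a disulphide isomerase, fell by 2.62 ± 0.14 (log2, SE, limma-voom, adjusted p = 1.97e-06), from 31.5 to 5.21 CPM, and Sdf2l1, a luminal chaperone cofactor, by 2.75 ± 0.33 (adjusted p = 0.000161), or by 1.51 without P0 replicate 2. Of all genes, 36.1% were called from E14 to E15.5, with 19.6% lower, 9.04% from E15.5 to E17 and 20.5% from E17 to P0. Of the list, 10 were lower (66.7%) and 0 higher from E14 to E15.5, and 9 were lower (60%) from E17 to P0. From E15.5 to E17, 5 were higher, among them the luminal chaperone Hspa5 by 0.59, and all 5 lost their call on leaving out any 1 library of these 2 stages, where Hspa5 was at 0.504 to 0.675 with an adjusted p of 0.0972 to 0.164. These 4 fits called few of all genes at this step, 18 without E17 replicate 1 and 0 in each of the other three by limma-voom, with 2048 to 2312 at an unadjusted p under 0.05.

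**Figure D4:**
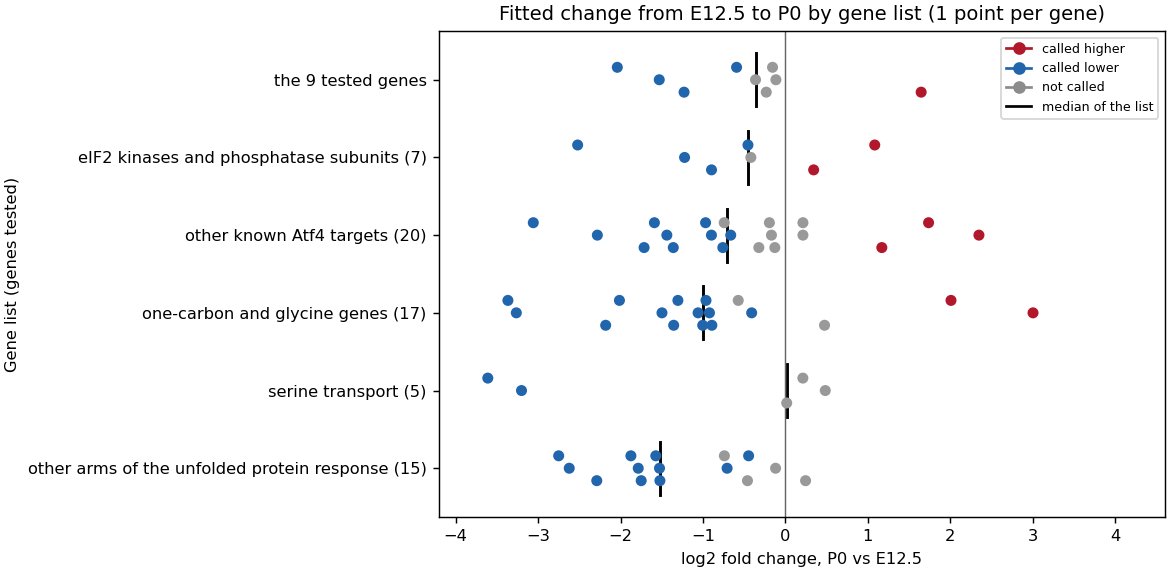
Log2 fold change from E12.5 to P0 of every tested gene of the 10 followed here and of the 5 pathway lists, 1 row per list. Colour gives the limma-voom call, red for higher, blue for lower and grey for not called, and a bar lies at each list's median. The medians lie at −0.36 for the genes followed here and at −1.53 for the other arms of the unfolded protein response, and points lie on both sides of 0 in every list.

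Among genes averaging 500 counts or more, those with a profile nearest to that of Atf4 over the 10 libraries were Ndufa1, a subunit of respiratory complex I, Rpl19, a ribosomal protein, and Hccs, which attaches haem to cytochrome c. Their root mean square differences were 0.111, 0.119 and 0.121 in centred log2 CPM, where the median over 4559 candidates was 0.415. The genes nearest to Phgdh were Hnrnpf, an RNA-binding splicing factor, Parva, an adaptor of integrin adhesions, and Txlna, a syntaxin-binding protein, at 0.085, 0.0915 and 0.102, where the median over 4558 candidates was 0.679. The stage means of these 3, picked for nearness to Phgdh, were lower at E15.5 than at E14, as their selection made likely. Hnrnpf went from 817 to 517 CPM, Parva from 66 to 35.3 and Txlna from 43.2 to 24.4.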

How the data were processed

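The deposited table held whole-number footprint counts per gene, made by the authors from Ribo-seq reads that were trimmed, freed of duplicates and of rRNA and tRNA, and aligned with STAR (2.7.0 per the submitters' processing notes, where the study's methods name an earlier version), keeping reads with several matches. The study's methods name GENCODE mouse transcripts, DeepShape-prime for isoform abundance and tximport for gene-level counts, but do not say whether this table came from these steps. A symbol matched 22274 of its 22373 gene identifiers. No column of per-sample values was left aside. Genes with at least 32 footprints over the 2 libraries of a stage were kept, and 1 coefficient per stage was fitted over the 10 libraries with limma-voom (R 4.3.3, limma 3.58.1, edgeR 4.0.16 for TMM), two-sided, with Benjamini-Hochberg adjustment over 13484 genes. DESeq2 1.42.0 and edgeR's quasi-likelihood test were alternatives. Code was tested on simulated data. Replicates were pools, and p-values measure the spread between pools.

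The 10 genes, lists and tests were chosen with earlier results of these data known. Beside the 10, the text names by rule, from each list, the 2 genes with the largest called rise and the 2 with the largest called fall from E12.5 to P0 with a mean of at least 100 counts, and the 3 genes of at least 500 counts nearest in profile to Atf4 and to Phgdh, computed with an offset of 0.5 CPM. Hspa5, Gfap, Aldh1l1, Sox9, Aldoc and the ratios were chosen after values were seen. One further gene that the rule takes is not reported here.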

Additional observations from a re-analysis of the deposited data

How the results depend on the processing

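The results were recomputed under 19 alternatives, of which 10 left out 1 library each. Phgdh, Psat1, Shmt2 and Asns from E12.5 to P0 and Phgdh, Psat1 and Asns from E14 to E15.5 kept their calls in all 19. The number of the 9 tested genes called from E14 to E15.5 was 3 with total counts, 5 with DESeq2, 5 without a filter, 7 with sample quality weights and 3 to 6 with a library left out. From E15.5 to E17 it was 1 without a filter, 4 with sample quality weights, 1 with the replicate block and 0 to 3 with a library left out. From E17 to P0 it was 0 with those stages fitted alone and 1 to 2 with a library left out, from E12.5 to E14 0 to 1, and from E12.5 to P0 4 to 6. Over all genes, 0 to 1062 were called between E12.5 and E14, 0 to 3717 between E15.5 and E17, and 0 to 4419 between E17 and P0.

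The differences between replicates 1 and 2 correlated across 4559 genes between −0.641 and 0.429 over 10 pairs of stages. Of these pairs, 5 were above 0.1 and 4 below −0.1, so equal replicate numbers did not mark the same difference in all stages. Whether libraries of different stages shared a batch was not tested. The block changed no count of the 9 genes other than that from E15.5 to E17.

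Among the 10 genes and the list genes recomputed singly, signs turned in differences that were not called, and in Ppp1r15b, which was called lower. Other list genes were recomputed only as counts. The cause was not tested. Total counts moved the median of all genes by 0.527 from E12.5 to P0 and by 0.108 from E17 to P0. From E12.5 to E14 the move was 0.06, and from E14 to E15.5 it was 0.294. With total counts, the values from E12.5 to P0 were 0.408 for Atf4, 0.287 for Ddit3, 0.367 for Ddit4, 0.154 for Sesn2 and 0.0669 for Ppp1r15b, those from E17 to P0 were 0.0466 for Ddit3, 0.0705 for Phgdh, 0.0404 for Psph and 0.0799 for Shmt2, that of Atf4 from E12.5 to E14 was 0.057 and that of Ddit4 from E14 to E15.5 was 0.0221. Shmt2 from E17 to P0 was 0.00343 with DESeq2's size factors, 0.0266 with DESeq2 and 0.0227 with quality weights, and Atf4 from E12.5 to E14 was 0.00286 without a filter. From E12.5 to E14 with a library left out, Atf4 ranged from −0.205 to 0.166, Ddit3 from −0.632 to 0.0811, Shmt2 from −0.275 to 0.0321. From E15.5 to E17 with a library left out, Atf4 ranged from −0.0595 to 0.153, Ddit3 from −0.316 to 0.0873. From E12.5 to P0 with a library left out, Atf4 ranged from −0.315 to 0.297, Ddit4 from −0.512 to 0.308, Sesn2 from −0.451 to 0.0824. From E14 to E15.5 with a library left out, Ddit3 ranged from −0.181 to 0.531. From E17 to P0 with a library left out, Ddit3 ranged from −0.119 to 0.0451, Ddit4 from −0.527 to 0.292, Phgdh from −0.15 to 0.0578, Psph from −0.219 to 0.181, Shmt2 from −0.143 to 0.19.

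Of the lists from E12.5 to P0, the eIF2 genes called were 3 with DESeq2, 3 with quality weights and 2 with those stages fitted alone, and the serine transporters called were 4 with total counts. Levels per coding length were not run, since no coding lengths were used here. Trib3 had too few counts to be tested. Ddit3 and Sesn2 averaged 32.8 and 31.1 counts per library, which limits what their comparisons can show, and 2 libraries per stage limit every comparison.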
